A study of Mus musculus with 3 samples.

Results

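Messenger RNA of 10 heat shock chaperone genes was followed across 3 cultures of mouse bone marrow stromal cells. The genes were taken by symbol, as Hspa1a, Hspa1b, Hspa8, Hsp90aa1, Hsph1, Dnajb1, Hspb1, Hspb7, Hspb8 and Bag3. All 10 were found among the 27179 genes measured. All 10 also passed the filter used here, a level averaging 50 or more over the 3 libraries, as did 11067 genes in all. The cultures, whose cells carry a wild-type genotype in the labels, were grown at 3% oxygen and given extracellular vesicles from bone marrow plasma for 3 days. Ocn-EV vesicles came from mice with the CAGS-Snorkel transgene and Ocn-Cre, a driver that works in mature osteoblasts. For Prx1-EV the donors carried CAGS-Snorkel and Prx1-Cre, whose promoter works in early limb mesenchyme and so marks the cells derived from it. The control, All-EV, used vesicles of wild-type donors. All donor mice were C57BL/6N and 6 months old, and plasma of 5 mice of both sexes was pooled into 1 sample per vesicle type. All vesicles are described as taken up on beads with an HA antibody, and the way this captured wild-type vesicles is not stated in these sources. No culture without vesicles was analysed here, so every value below describes a vesicle-treated culture.

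Each vesicle type had 1 sequenced culture (n = 1 per group), so the differences below lack any check by replicates, and p-values are left out. The libraries held 14233978 to 17269204 reads assigned to genes. Levels are the authors' normalised counts as deposited, a ratio is the plain quotient of those values, and bracketed ranges are 95% exact binomial intervals of the ratio, for counting error alone. The words higher and lower set 1 library against another.

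Heat shock chaperones bind unfolded proteins and keep them from clumping until they refold or are degraded. The HSP70 machine works with J-domain proteins, which bring it clients, and with exchange factors of the BAG and HSP110 families, which make it let go. Small heat shock proteins hold unfolded clients without using ATP. Some of these genes, such as Hspa8, run at a high level in unstressed cells, while others, such as Hspa1a and Hspa1b, are kept low and are switched on by heat shock factor 1 (HSF1). HSF1 binds DNA at heat shock elements, which are inverted repeats of the letters GAA. In muscle and other contractile cells, Bag3 and Hspb8 work with Hspa8 to remove damaged cytoskeletal proteins.

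The upstream sequences of 4 members are shown because these genes had the highest ratios to All-EV described below. The 250 bases before the annotated start are given 5′ to 3′ on the strand of the gene, from RefSeq on build GRCm38.p6. Capitals mark the letters GAANNTTC or TTCNNGAA, either of which is a pair of facing units of a heat shock element and reads the same on both strands. Hspa1a lies on the minus strand at chr17:34972157-34972406, Hspa1b on the minus strand at chr17:34959239-34959488, Hspb1 on the plus strand at chr5:135887669-135887918 and Hspb7 on the plus strand at chr4:141420529-141420778.
Hspa1a: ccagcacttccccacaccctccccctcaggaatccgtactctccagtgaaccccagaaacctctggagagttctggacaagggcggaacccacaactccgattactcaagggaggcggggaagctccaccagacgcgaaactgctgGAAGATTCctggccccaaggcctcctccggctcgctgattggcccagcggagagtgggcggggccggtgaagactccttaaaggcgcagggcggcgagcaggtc
Hspa1b: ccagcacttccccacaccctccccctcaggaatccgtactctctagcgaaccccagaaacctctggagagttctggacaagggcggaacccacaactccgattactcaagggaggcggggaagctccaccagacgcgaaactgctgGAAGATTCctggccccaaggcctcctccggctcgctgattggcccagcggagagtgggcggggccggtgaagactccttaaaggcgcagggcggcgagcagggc
Hspb1: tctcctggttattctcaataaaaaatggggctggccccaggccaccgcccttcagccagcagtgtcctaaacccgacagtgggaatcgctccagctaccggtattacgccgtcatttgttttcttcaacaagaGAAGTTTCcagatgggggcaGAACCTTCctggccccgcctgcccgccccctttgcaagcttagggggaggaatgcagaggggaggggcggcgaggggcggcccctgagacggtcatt
Hspb7: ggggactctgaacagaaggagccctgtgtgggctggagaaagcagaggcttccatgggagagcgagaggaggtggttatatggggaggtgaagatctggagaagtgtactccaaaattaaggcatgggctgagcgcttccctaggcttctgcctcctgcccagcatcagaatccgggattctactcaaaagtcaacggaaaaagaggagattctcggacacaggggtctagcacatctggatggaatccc

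Hspa1a and Hspa1b held the same match, beginning 104 bases before the start, and their upstream stretches differed at 3 of 250 bases. Hspb1 held 2 matches, beginning 117 and 97 bases before its start. The Hspb7 stretch held none. Hsph1, whose level was close to that of All-EV, also held a match. It is shown for contrast, from the minus strand at chr5:149636337-149636586, with its match beginning 33 bases before the start.
Hsph1: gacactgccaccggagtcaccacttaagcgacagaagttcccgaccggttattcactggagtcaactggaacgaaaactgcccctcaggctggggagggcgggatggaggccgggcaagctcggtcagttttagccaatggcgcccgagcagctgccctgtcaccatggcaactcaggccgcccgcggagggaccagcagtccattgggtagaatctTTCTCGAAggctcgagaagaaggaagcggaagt
Among all 32851 promoter windows of the same table, 12.8% held either pair in the upstream 250 bases. In the 50 bases after the start, which are not shown, Hspb8 and Bag3 each held 1 match to GAANNTTC, and Hsph1 held a longer run of 3 units, in which TTCNNGAA and GAANNTTC overlap by their shared GAA. In windows of 300 bases across the start, 15.1% of all promoters held either pair and 0.603% held a run of 3 units, in either order of the pairs. Dnajb1 held none of these letters in either of its 2 windows. The table gave windows for 8 of the 10 members, and not for Hspa8 and Hsp90aa1. A match is a description of letters and not evidence of HSF1 binding.

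The label names bone marrow stromal cells, and markers of these and of other cells differed between the libraries. Of 10 stromal markers, 8 were at the filter, and 7 of these were 1.5-fold higher both with Ocn-EV and with Prx1-EV than with All-EV. The summed level of the 10 was 78544 with Ocn-EV and 52380 with Prx1-EV, against 14682 with All-EV, a quotient of 5.35 and 3.57. Col1a1 and Col1a2 made up 89.7% of the Ocn-EV sum, and without them the quotients were 3.65 and 2.4. The median stromal marker at the filter was 3.13-fold higher with Ocn-EV and 2.24-fold with Prx1-EV. Of 10 muscle and contractile markers, 9 were at the filter and all 9 were 1.5-fold higher in both comparisons, with sums of 30113 and 28505 against 10937 and medians of 3.34-fold and 3.09-fold. Myh11 and Myom1 had the highest ratios among them. Myh11 stood at 396 with Ocn-EV and 399 with Prx1-EV, against 47.5 with All-EV, and the sarcomere gene Myom1 at 284 and 279 against 54.3. The All-EV values of Myh11 and Des (47.5 and 32.8) lay under the filter level. Both were at the filter only through their Ocn-EV and Prx1-EV values. The cardiac actin gene Actc1 had 0, 1 and 1 reads in Ocn-EV, Prx1-EV and All-EV. Macrophage markers were abundant in all cultures, with sums of 135803 and 119279 against 231393 in All-EV. They split between higher (3 with Ocn-EV and 2 with Prx1-EV, of 10) and lower (3 and 4), and the median log2 ratio was 0.13 and 0.24. The lysozyme gene Lyz2 made up 60.6% of the All-EV sum, and without it the quotients of the sums were 0.923 and 0.864. Single markers still differed widely. Itgam had ratios to All-EV of 0.374 with Ocn-EV and 0.330 with Prx1-EV, and Adgre1 of 0.614 and 0.573. Mrc1 was higher, at 1.84-fold and 1.59-fold, as was C1qa, at 2.23-fold and 1.38-fold. The leukocyte gene Ptprc stood at 4054 with Ocn-EV and 4295 with Prx1-EV, against 3632 with All-EV. Endothelial markers (5, of which 3 at the filter) summed to 980 and 999 against 696, with 2 higher in each comparison. The stromal markers Lepr and Pdgfra were below the filter. No stromal, macrophage or endothelial marker was at 0 in any library. Beside these marker counts, 13.8% of all genes at the filter were 1.5-fold higher with Ocn-EV and 13.6% were lower. With Prx1-EV, 12.7% of all genes were higher and 12.7% lower. In bulk RNA such as this, more cells of a type and more RNA per cell cannot be told apart, and the part of these markers in the chaperone ratios below was not tested.

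The members split into a group that was higher with both Cre-derived vesicle types and a group that stood close to All-EV. Hspa1a, Hspa1b, Hspb1 and Hspb7 passed 1.5-fold, being higher with Ocn-EV than with All-EV, which makes 4 of 10, and none was lower by that amount. Of all 11067 genes, 13.8% were higher by 1.5-fold in that comparison and 13.6% were lower. The same 4 genes were at least 1.5-fold higher with Prx1-EV than with All-EV, where 12.7% of all genes were higher and 12.7% lower. Both comparisons share the All-EV library. The members were chosen with earlier results of these data known, and Hspb7 was at the filter only through its Ocn-EV and Prx1-EV values. The counts and medians of the members beside those of all genes are therefore descriptive. At 2-fold, 4 members were higher with Ocn-EV, where 6.27% of all genes were higher and 4.2% lower. With Prx1-EV, 3 were higher, where 5.12% of all genes were higher and 3.66% lower. The median log2 ratio of the 10 members, computed after adding 1 to each value, was 0.28 with Ocn-EV and 0.25 with Prx1-EV, beside medians over all genes of −0.02 and 0.00. Hspa1a and Hspa1b are near-identical, and with the pair summed as 1 gene 3 of 9 were 1.5-fold higher in each comparison. The medians were then 0.27 with Ocn-EV and 0.17 with Prx1-EV. Among the 8 members with a mean of at least 200 they were 0.19 and 0.07. Setting the libraries to equal totals moved the median of all genes to 0.24 with Ocn-EV and 0.23 with Prx1-EV and put 24.9% and 23.1% of all genes 1.5-fold higher. The members' medians were then 0.53 and 0.48, and 4 of 10 members again passed 1.5-fold in each comparison.

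**Figure D1:**
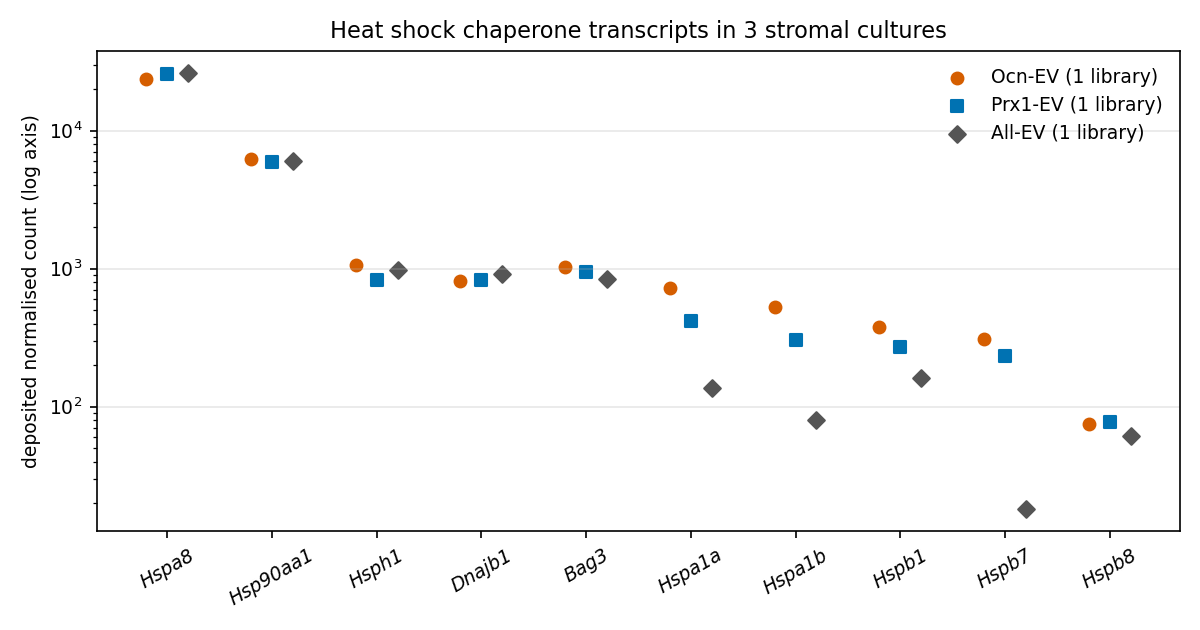
Deposited normalised count (log axis) of each of the 10 members in the Ocn-EV, Prx1-EV and All-EV libraries, with 1 point per library. Hspa8 and Hsp90aa1 lie highest with their 3 points close together, while the All-EV point of Hspb7, at 18.1, lies far below its points at 312 and 231.

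Hspa1a and Hspa1b encode the stress-inducible cytosolic HSP70. They lie side by side on the minus strand, at chr17:34969359-34972156 and chr17:34956429-34959238 on GRCm38.p6, and each has 1 coding exon. Hspa1a stood at 728 with Ocn-EV and 419 with Prx1-EV, against 137 with All-EV. Its level was 5.32-fold higher with Ocn-EV than with All-EV (4.38 to 6.50) and 3.06-fold higher with Prx1-EV (2.50 to 3.76). Hspa1b stood at 526 with Ocn-EV and 303 with Prx1-EV, against 80.3 with All-EV. Its level was 6.55-fold higher with Ocn-EV (5.10 to 8.51) and 3.77-fold higher with Prx1-EV (2.91 to 4.93). Both genes were highest in the Ocn-EV library and lowest in the All-EV library, and the intervals of the ratios to All-EV lay above 1 throughout. Beside them, the median stromal marker was 3.13-fold and 2.24-fold higher, with the 3 collagen genes of that list above the median, and the part of these markers in the HSP70 ratios was not tested. By rank among the 11067 genes, Hspa1b was number 59 from the top with Ocn-EV and number 104 with Prx1-EV, and Hspa1a was number 83 and number 178.

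The values of the single HSP70 copies are uncertain because the copies are near-identical. Their aligned coding sequences shared 1918 of 1929 positions (99.4%), with 8 differing bases and a gap of 3. Of the 150-base windows of the Hspa1a transcript, the length of 1 sequenced read, 38.1% occurred unchanged in the Hspa1b transcript, and 40.5% of the windows of Hspa1b occurred in Hspa1a. The counting rule for reads that match both copies is not given in these sources. Hspa1a held 58.1% of the reads of the pair with Ocn-EV (55.2 to 60.8, exact Clopper-Pearson interval), 58.0% with Prx1-EV (54.6 to 61.4) and 63.0% with All-EV (55.8 to 69.9), and these intervals overlapped. Summed as 1 gene, the pair had 1211 reads with Ocn-EV, 827 with Prx1-EV and 192 with All-EV. The sum was 5.77-fold higher with Ocn-EV than with All-EV (4.95 to 6.76) and 3.32-fold higher with Prx1-EV (2.83 to 3.91). Hspa1a also overlaps the annotated gene Gm20481 on the opposite strand, and whether counting used strand is not stated.

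Hspa8, the constitutive HSC70 of the cytosol, was the most abundant member. It stood at 23672 with Ocn-EV and 25668 with Prx1-EV, against 26284 with All-EV. Its ratios to All-EV were 0.901 with Ocn-EV (0.884 to 0.917) and 0.977 with Prx1-EV (0.960 to 0.994). The log2 ratio of Hspa8 was −0.15 with Ocn-EV and −0.03 with Prx1-EV as deposited, but 0.11 and 0.19 with libraries set to equal totals, so its direction depends on scaling. Hspa8 overlaps the small nucleolar RNA genes Snord14c, Snord14d and Snord14e on its own strand. Hspa8 held 68.1% of all member reads with Ocn-EV, 72.3% with Prx1-EV and 74.1% with All-EV. The summed level of the 10 members was 0.979 of the All-EV sum with Ocn-EV (0.964 to 0.994) and 1.00 of it with Prx1-EV (0.985 to 1.01). As a share of all assigned reads the 10 members took 0.236% with Ocn-EV and 0.236% with Prx1-EV, against 0.202% with All-EV.

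**Figure D2:**
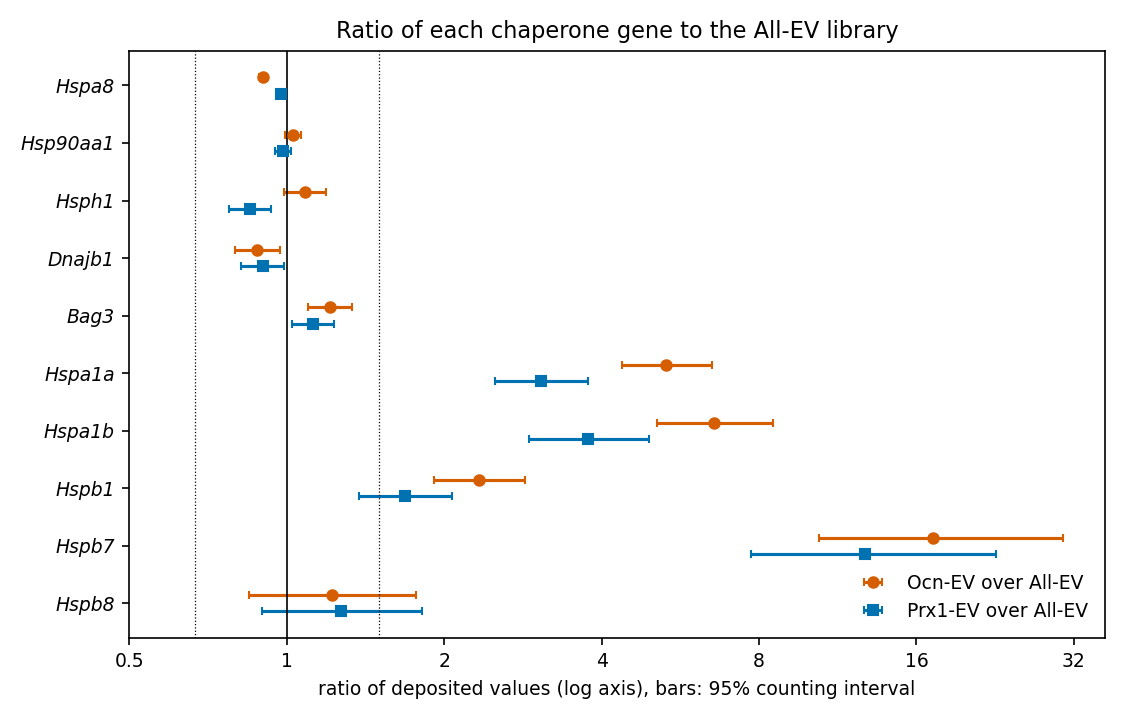
Ratio of the deposited value to All-EV for each member (log axis), with Ocn-EV above Prx1-EV in each row, 95% counting intervals as bars and dotted lines at 1.5-fold in either direction. Hspb7, Hspa1b and Hspa1a lie farthest to the right and Hspb1 lies past the 1.5-fold line, while the points of the other 6 genes lie between the dotted lines.

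Hsp90aa1, the stress-inducible cytosolic HSP90, stood near its All-EV level in both cultures. It stood at 6174 with Ocn-EV and 5909 with Prx1-EV, against 6006 with All-EV. Its ratios of 1.03 (0.991 to 1.07) and 0.984 (0.949 to 1.02) both had intervals that held 1. With libraries set to equal totals its log2 ratios were 0.30 and 0.20, so the direction with Prx1-EV depends on scaling. Hsph1, an HSP110 protein that exchanges nucleotide on HSP70, stood at 1055 with Ocn-EV and 828 with Prx1-EV, against 974 with All-EV. The ratio of Hsph1 to All-EV was 1.08 with Ocn-EV (0.988 to 1.19) and 0.850 with Prx1-EV (0.774 to 0.933). The interval with Ocn-EV held 1. With libraries set to equal totals the log2 ratios of Hsph1 were 0.37 with Ocn-EV and −0.01 with Prx1-EV.

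Dnajb1, the stress-inducible J-domain partner of HSP70, stood at 809 with Ocn-EV and 829 with Prx1-EV, against 921 with All-EV. Its ratios were 0.878 with Ocn-EV (0.795 to 0.970) and 0.900 with Prx1-EV (0.818 to 0.989), but with libraries set to equal totals its log2 ratios were 0.07 in both comparisons. Bag3, the stress-inducible exchange factor that links HSP70 to small heat shock proteins, stood at 1021 with Ocn-EV and 947 with Prx1-EV, against 844 with All-EV. Its ratios of 1.21 (1.10 to 1.33) and 1.12 (1.02 to 1.23) were above 1 beyond counting error and below 1.5-fold. With libraries set to equal totals its log2 ratios were 0.53 and 0.39, nearer to 1.5-fold but still below it. Bag3 overlaps the annotated gene 2610306O10Rik on the same strand. How reads of such overlaps were counted is not stated. Of the 5 stress-inducible genes of the HSP70 and HSP90 machines other than Bag3, then, the HSP70 pair was the only one past 1.5-fold in the comparisons with All-EV, and Hsp90aa1, Hsph1 and Dnajb1 had ratios of 0.850 to 1.08.

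The small heat shock proteins differed among themselves. Hspb7, a gene at chr4:141420779-141425310 with 3 exons in its longest coding transcript, is known from heart and skeletal muscle. It stood at 312 with Ocn-EV and 231 with Prx1-EV, against 18.1 with All-EV. It rested on 301 reads with Ocn-EV and 265 with Prx1-EV, against 16 with All-EV. Its level was 17.2-fold higher with Ocn-EV than with All-EV (10.4 to 30.5) and 12.8-fold higher with Prx1-EV (7.72 to 22.7). Its ratio was number 9 from the top of 11067 genes with Ocn-EV and number 7 with Prx1-EV, with the All-EV reads setting the width of the intervals. The All-EV value of 18.1 lay under the filter level, so Hspb7 passed the filter only through its Ocn-EV and Prx1-EV values. A filter on the mean keeps low All-EV genes only if another library is high, so these ranks are descriptive. Beside Hspb7, the median muscle marker was 3.34-fold and 3.09-fold higher than with All-EV. The part of these markers in the Hspb7 ratios was not tested.

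Hspb1, a gene at chr5:135887919-135889563 that encodes the actin-binding HSP25 of the mouse, stood at 375 with Ocn-EV and 270 with Prx1-EV, against 161 with All-EV. Its level was 2.33-fold higher with Ocn-EV (1.92 to 2.85) and 1.68-fold higher with Prx1-EV (1.38 to 2.07), and the lower limit with Prx1-EV lay under 1.5-fold. Hspb8, the Bag3 partner, stood at 74.6 with Ocn-EV and 77.6 with Prx1-EV, against 61.1 with All-EV. With 72, 89 and 54 reads in Ocn-EV, Prx1-EV and All-EV, its ratios of 1.22 (0.845 to 1.77) and 1.27 (0.896 to 1.82) could not be told from 1 at this depth. With libraries set to equal totals its log2 ratios were 0.54 and 0.56, just below 1.5-fold. Hspb8 had the lowest mean level of the members, at 71.1.

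**Figure D3:**
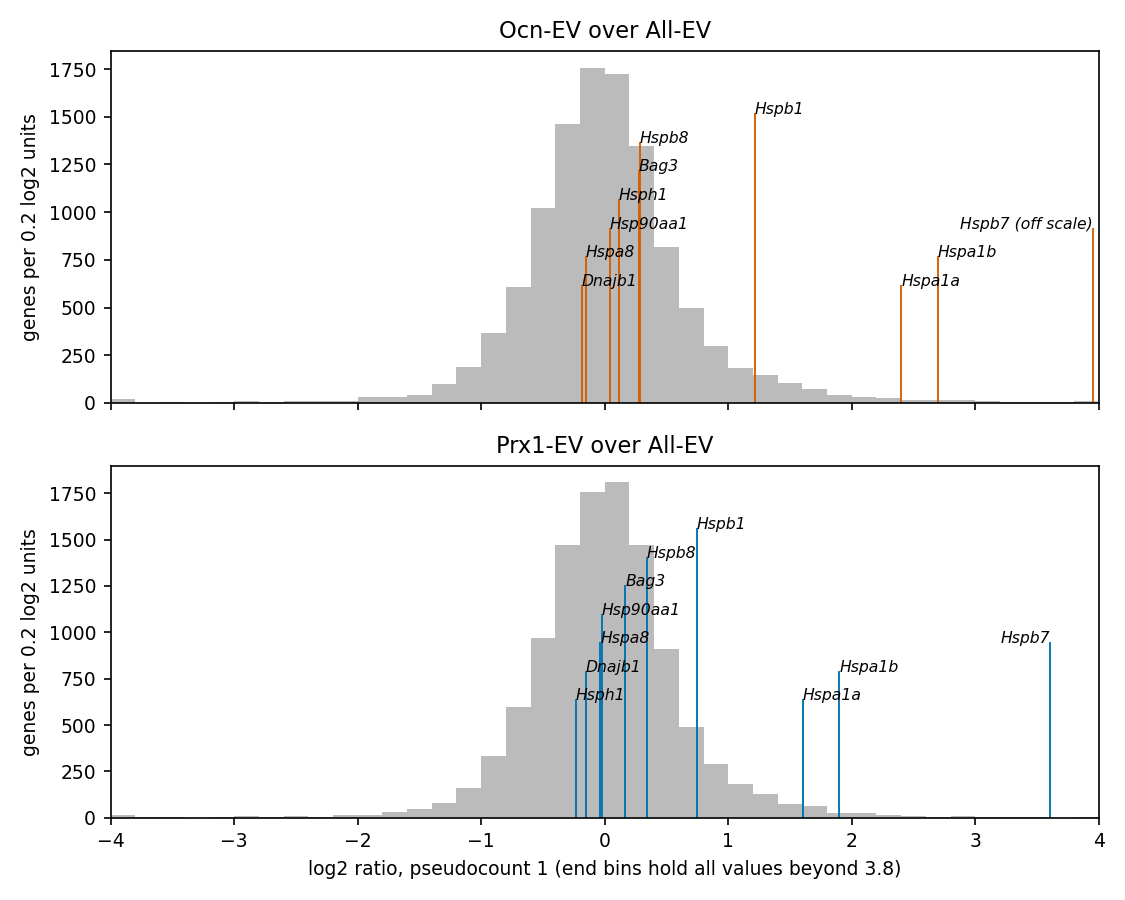
Number of genes per 0.2 log2 units for the 11067 genes at the filter, with vertical lines at the 10 members, for Ocn-EV over All-EV (top) and Prx1-EV over All-EV (bottom). Hspa8, Hsp90aa1, Hsph1, Dnajb1, Bag3 and Hspb8 lie within the main body of genes, whereas Hspa1a, Hspa1b and Hspb7 lie in the right tail of both panels.

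Ocn-EV was also set against Prx1-EV directly. Hspa1a and Hspa1b were 1.74-fold higher with Ocn-EV than with Prx1-EV (1.55 to 1.96 and 1.51 to 2.00), which makes 2 of 10 members past 1.5-fold, where 2.24% of all genes were higher by that amount. No member was lower by 1.5-fold, where 1.3% of all genes were. At 2-fold, 0 members were higher or lower, beside 0.325% of all genes higher and 0.19% lower. Beside them, the median stromal marker was 1.4-fold higher with Ocn-EV than with Prx1-EV. Counted as 1 gene, the pair gave 1 of 9 (1.59 to 1.90 around the same ratio). Hspb1 was 1.39-fold higher with Ocn-EV than with Prx1-EV (1.19 to 1.62), Hspb7 1.35-fold (1.14 to 1.60) and Hsph1 1.27-fold (1.17 to 1.39). Hsp90aa1, Dnajb1, Hspb8 and Bag3 had ratios between 0.960 and 1.08, and Hspa8 stood at 0.922 (0.906 to 0.938). The HSP70 pair and Hspb1 were ordered Ocn-EV, then Prx1-EV, then All-EV, each step beyond counting error, as was Hspb7.

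Each inducible gene was set against a constitutive relative within the same library, which removes the scaling between libraries. The HSP70 pair had 5.30 reads per 100 reads of Hspa8 with Ocn-EV (5.00 to 5.61) and 2.81 with Prx1-EV (2.62 to 3.01), against 0.827 with All-EV (0.713 to 0.953). This ratio was 6.41 times the All-EV one with Ocn-EV and 3.4 times it with Prx1-EV. Divided by transcript length, the pair stood at 4.38% of Hspa8 with Ocn-EV, 2.32% with Prx1-EV and 0.681% with All-EV, so Hspa8 far exceeded it in every library. These percentages also depend on the unstated counting of reads that match both copies.

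The other pairs differed less between libraries. Hsp90aa1 had 28.8 reads per 100 of Hsp90ab1, the constitutive HSP90, with Ocn-EV (28.0 to 29.7) and 28.3 with Prx1-EV (27.5 to 29.0), against 26.2 with All-EV (25.5 to 27.1). Hsph1 had 34.2 per 100 of Hspa4, its constitutive HSP110 relative, with Ocn-EV (31.8 to 36.7) and 27.8 with Prx1-EV (25.9 to 29.9), against 30.1 with All-EV (27.8 to 32.5). Hsp90ab1 and Hspa4 themselves had ratios to All-EV of 0.914 to 0.952. Dnajb1 had 62.1 per 100 of Dnajb6, a J-domain protein that hinders aggregation, with Ocn-EV (56.7 to 67.9) and 61.1 with Prx1-EV (56.3 to 66.2), against 46.2 with All-EV (42.5 to 50.2). That difference came with a lower Dnajb6, at 1303 with Ocn-EV and 1357 with Prx1-EV against 1994 with All-EV, while Dnajb1 was not higher. The upstream stretch of Dnajb6, which served here as the constitutive form, held a run of 3 units.

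**Figure D4:**
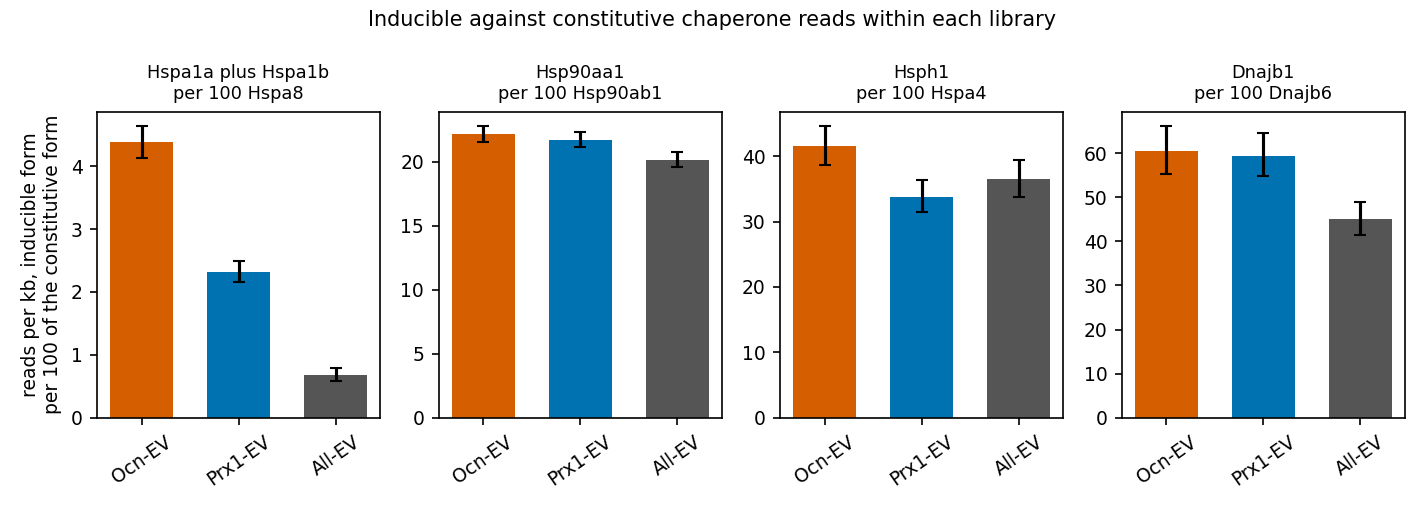
Reads per kilobase of an inducible chaperone per 100 of its constitutive relative, within the Ocn-EV, Prx1-EV and All-EV libraries, with 95% counting intervals; each panel has its own axis from 0. The HSP70 pair per Hspa8 runs 4.38, 2.32 and 0.681, and Hsp90aa1 per Hsp90ab1 runs 22.1, 21.7 and 20.2. Hsph1 per Hspa4 runs 41.5, 33.8 and 36.5, and Dnajb1 per Dnajb6 runs 60.5, 59.5 and 45.0.

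Levels were compared between members per kilobase of the longest coding transcript in GENCODE vM21. On that scale Hspa8 was first in every library, at 9888 per kilobase with Ocn-EV and 10722 with Prx1-EV, against 10979 with All-EV, followed by Hsp90aa1 at 1882, 1801 and 1830 in the same libraries. Bag3, Hspb1, Dnajb1 and Hsph1 followed, between 173 and 403 per kilobase. Hspb1 stood at 403 per kilobase with Ocn-EV, where it could not be told from Bag3 at 398, at 291 with Prx1-EV, below Bag3, and at 173 with All-EV, below Bag3, Dnajb1 and Hsph1. The HSP70 copies came below these 6 genes in Ocn-EV and Prx1-EV, with Hspa1a at 245 and 141 per kilobase, against 46.2 with All-EV. The place of the copies in this order also depends on how reads that match both were counted, which is not given. With Ocn-EV, Dnajb1 (270 per kilobase) could not be told from Hspa1a (245), whereas with All-EV Dnajb1 stood at 307 and Hspa1a at 46.2. Hspb8 was last with Ocn-EV and Prx1-EV, and Hspb7 was last with All-EV at 6.54 per kilobase. In All-EV the order of Hspa1a, Hspb8 and Hspa1b was within counting error.

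The genes nearest to the HSP70 pair in their ratios to All-EV, by the distance between log2 ratios in both comparisons over the 3 libraries, were Col3a1, Fgd2, Rflnb, Adamts5 and Col1a2, at distances of 0.06 to 0.14. Col3a1 and Col1a2, chains of fibrillar collagen, are also among the stromal markers. Col3a1 stood at 4943 with Ocn-EV and 3006 with Prx1-EV, against 869 with All-EV. The genes nearest to Hspb7 were Cbr2, Slc13a5, Gpr34, Susd5 and Fcrls, at distances of 0.22 to 0.50. Cbr2 stood at 625 with Ocn-EV and 543 with Prx1-EV, against 37.3 with All-EV, and Gpr34 at 375 and 359 against 22.6. Gpr34 and Fcrls are known from microglia and other macrophages. Like Hspb7, its neighbours Cbr2, Slc13a5, Gpr34 and Susd5 had All-EV values under the filter level, whereas Fcrls stood at 569. Among the neighbours of the HSP70 pair, the All-EV values of Fgd2, Rflnb and Adamts5 also lay under it, and those of both collagen genes above it. With 3 libraries the likeness rests on 2 ratios per gene, and the lists only name neighbours.

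The rest of the chaperone network was described by 12 lists holding 102 genes other than the members, of which 89 were at the filter. The lists overlap, so genes such as Hspa4l, Hspa5 and Dnajb9 are counted in more than 1 list. The counts of single lists are therefore not independent. With Ocn-EV, 8 of the 89 (8.99%) were 1.5-fold higher than with All-EV and 22 (24.7%) were lower, beside 13.8% higher and 13.6% lower of all genes. With Prx1-EV, 7 (7.87%) were higher and 14 (15.7%) lower, beside 12.7% each way of all genes. The median log2 ratio of the 89 was −0.23 with Ocn-EV and −0.20 with Prx1-EV. With libraries set to equal totals, 13 (14.6%) were higher and 8 (8.99%) lower with Ocn-EV, beside 24.9% and 6.58% of all genes. With Prx1-EV, 11 (12.4%) were higher and 5 (5.62%) lower, beside 23.1% and 6.45% of all genes. Both medians of the 89 were then 0.03, and the medians of all genes 0.24 and 0.23. On either scaling the median of the 89 minus that of all genes was −0.21 with Ocn-EV and −0.20 with Prx1-EV. The counts of single lists below are to be read against these shares of all genes. Between Ocn-EV and Prx1-EV, 2 of the 89, Dnaja4 and Cryab, were 1.5-fold higher and none was lower. Dnaja4 averaged 53.1 and was at the filter only through its Ocn-EV value of 77.7, against 45.4 with Prx1-EV and 36.2 with All-EV. It is also among the 8 that were higher with Ocn-EV than with All-EV.

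The regulators of the response stood near their All-EV levels. Hsf1, the factor that switches on heat shock genes, stood at 444 with Ocn-EV and 448 with Prx1-EV, against 430 with All-EV (ratios 1.03, 0.898 to 1.19, and 1.04, 0.910 to 1.19). Hsf2 stood at 306 and 308 against 346. HSF1 is controlled mainly at the protein level, which these data do not measure. None of the 4 factors and binding proteins at the filter was 1.5-fold higher or lower, with median log2 ratios of −0.05 and −0.11 that were 0.21 and 0.11 at equal totals. Among 15 textbook HSF1 targets other than the members, 2 were higher and 4 lower with each Cre-derived vesicle type (median log2 0.10 and 0.09). At equal totals 3 were higher and 3 lower with Ocn-EV, and 2 and 2 with Prx1-EV (medians 0.35 and 0.32). Serpinh1, the collagen chaperone HSP47 of the endoplasmic reticulum, was the highest, at 5274 with Ocn-EV and 4076 with Prx1-EV, against 1369 with All-EV (3.85-fold, 3.62 to 4.10, and 2.98-fold, 2.79 to 3.17). Ahsa1, which stimulates the ATPase of HSP90, was 1.36-fold and 1.56-fold higher. Hspa4l, an HSP110 relative, stood at 569 with Ocn-EV and 728 with Prx1-EV, against 1477 with All-EV, and the polyubiquitin gene Ubb at 5211 and 4934 against 11536.

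**Figure D5:**
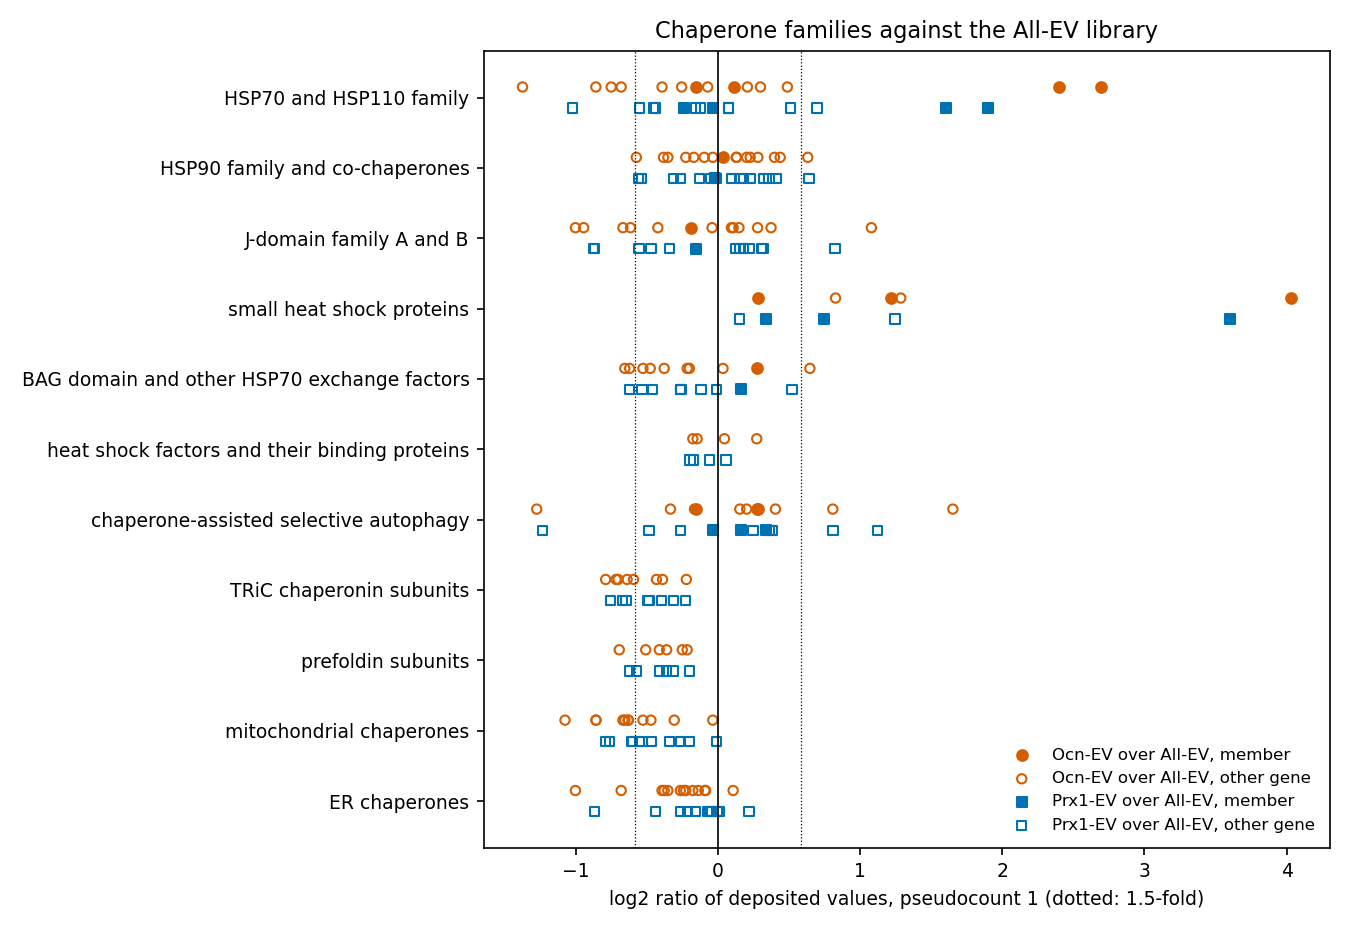
Log2 ratio to All-EV (pseudocount 1) of every gene at the filter in 11 chaperone lists, with Ocn-EV above Prx1-EV in each row, members as filled and other genes as open symbols, and dotted lines at 1.5-fold. All 5 small heat shock protein genes lie right of 0, whereas all 8 TRiC, 6 prefoldin and 11 mitochondrial chaperone genes lie left of it on the deposited scale. The list of textbook HSF1 targets, which holds Serpinh1, is not shown.

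Within the HSP70 and HSP110 family, 4 of 10 other genes were lower with Ocn-EV and none was higher, and 1 was lower and 1 higher with Prx1-EV. The medians of these genes were −0.32 and −0.14. At equal totals 1 was higher and 2 were lower with Ocn-EV, and 2 were higher and 1 lower with Prx1-EV (medians −0.07 and 0.08). Hspa4l and the mitochondrial HSP70 Hspa9 were lowest (Hspa9 at 9853 with Ocn-EV and 12194 with Prx1-EV, against 17855 with All-EV). Hspa2 and Hspa1l were highest, and Hspa1l, the neighbour and close relative of the HSP70 pair, had 50, 69 and 37 reads in Ocn-EV, Prx1-EV and All-EV, with ratios of 1.24 (0.792 to 1.95) and 1.44 (0.951 to 2.21). Of 15 HSP90 co-chaperones and relatives, 1 was higher in each comparison (Unc45a, a myosin chaperone, 1.55-fold with Ocn-EV, and Ahsa1 with Prx1-EV) and none was lower (median log2 0.13 and 0.09). At equal totals 3 were higher with Ocn-EV and 2 with Prx1-EV, and none was lower (medians 0.38 and 0.32). Cacybp and Cdc37, the kinase-specific co-chaperone, were the lowest, with ratios of 0.672 to 0.767.

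Among 12 other J-domain genes, 1 was higher and 4 were lower with Ocn-EV, and 1 was higher and 2 lower with Prx1-EV (median log2 0.03 and 0.14). At equal totals 2 were higher and 2 lower with Ocn-EV, and 1 and 2 with Prx1-EV (medians 0.28 and 0.37). Dnajb9 and Dnajb12, both of the endoplasmic reticulum, had ratios of 0.499 to 0.549. Dnaja4 was 2.14-fold higher with Ocn-EV (1.40 to 3.35) and 1.25-fold with Prx1-EV (0.791 to 2.01), and Dnajb14 1.21-fold and 1.77-fold. Of these, Dnaja4 was at the filter only through its Ocn-EV value. Among 9 exchange factors besides Bag3, 1 was higher and 2 were lower with Ocn-EV, and 1 was lower with Prx1-EV (median log2 −0.38 and −0.26). Bag1 stood at 1274 with Ocn-EV and 1271 with Prx1-EV, against 1958 with All-EV, while Hspbp1 was 1.57-fold and 1.44-fold higher and Bag6 had ratios of 1.03 and 0.995. Grpel1, the mitochondrial exchange factor, stood at 559 and 557 against 806. Bag1 and Bag3 lay on opposite sides of All-EV as deposited. With libraries set to equal totals, 1 of the 9 was higher and none 1.5-fold lower in each comparison (medians −0.12 and −0.04).

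Both other small heat shock protein genes at the filter were over 1.5-fold higher with Ocn-EV, and 1 of them with Prx1-EV. Hspb6, the HSP20 of smooth and striated muscle, stood at 162 with Ocn-EV and 157 with Prx1-EV, against 65.6 with All-EV (2.46-fold, 1.81 to 3.39, and 2.39-fold, 1.77 to 3.27). Cryab, alpha-B crystallin, stood at 159 and 99.5 against 89.4 (1.78-fold, 1.35 to 2.37, and 1.11-fold, 0.828 to 1.5). Of the 5 family genes at the filter, members included, 4 were 1.5-fold higher with Ocn-EV and 3 with Prx1-EV. Hspb7, counted in both, was at the filter only through its Ocn-EV and Prx1-EV values. Hspb2, Hspb3, Hspb9 and Cryaa had at most 7 reads in any library and were too low to compare.

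The partners of Bag3 and Hspb8 in chaperone-assisted autophagy lay on both sides of All-EV. Of 8 such genes other than members, 2 were higher and 1 was lower in each comparison (median log2 0.18 and 0.30), and 3 and 1 at equal totals (medians 0.43 and 0.53). Synpo2, the actin-bundle protein that recruits Bag3, stood at 173 with Ocn-EV and 119.5 with Prx1-EV, against 54.3 with All-EV (3.18-fold and 2.2-fold). Flnc, the muscle filamin that is a client of the complex, stood at 1077 with both, against 615 with All-EV (1.75-fold in each). The autophagy receptor Sqstm1 was the lower gene, at 13774 and 14147 against 33297, with ratios of 0.414 (0.405 to 0.422) and 0.425 (0.417 to 0.433), and Map1lc3a had ratios of 0.793 and 0.715. Beside these, Bag3 and Hspb8 had ratios of 1.12 to 1.27.

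Lists of chaperones that fold newly made or imported proteins differed in how many genes were 1.5-fold lower on the deposited scale. Of all genes, 13.6% were lower with Ocn-EV and 12.7% with Prx1-EV. Of the 8 subunits of TRiC, the cytosolic chaperonin that folds actin and tubulin, 5 were 1.5-fold lower with Ocn-EV and 3 with Prx1-EV (median log2 −0.62 and −0.49), but with libraries set to equal totals none was (medians −0.36 and −0.26). Cct4 stood at 2540 with Ocn-EV and 2605 with Prx1-EV, against 4389 with All-EV, and Cct6a at 1738 and 1729 against 2027. Of 11 mitochondrial chaperones and proteases, 7 were lower with Ocn-EV and 4 with Prx1-EV, with 3 and 0 at equal totals (medians −0.63 and −0.53, and −0.37 and −0.31 at equal totals). Hspd1, the mitochondrial HSP60, stood at 2661 and 3164 against 4819, and the protease subunit Clpp at 255 and 311 against 538. Trap1, the highest of this list, stood at 864 with Ocn-EV and 879 with Prx1-EV, against 885 with All-EV. Of 6 prefoldin subunits 1, Pfdn5, was lower in each comparison (median log2 −0.39 in both), and none at equal totals (medians −0.13 and −0.16). Of 13 chaperones of the endoplasmic reticulum, 2 were lower with Ocn-EV and 1 with Prx1-EV, with medians of −0.24 and −0.07. At equal totals 1 was lower in each comparison, with medians of 0.02 and 0.16. Among them Hspa5 (BiP) had ratios of 0.624 and 0.738, while Calr had ratios of 0.939 and 1.00. Dnajb11, the highest of the list, stood at 1927 with Ocn-EV and 2081 with Prx1-EV, against 1788 with All-EV. Serpinh1, also of the endoplasmic reticulum, was not in this list and stood at 5274 and 4076 against 1369. As deposited, the TRiC and mitochondrial lists exceeded the shares of all genes that were lower. The prefoldin and endoplasmic reticulum lists were near or below those shares.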

How the data were processed

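RNA of 3 cultures, 1 per vesicle type, was sequenced. Library input was 100 ng of RNA and reads were 150-base pairs, per the labels. The authors deposited 1 signal value per gene and library, a normalised count. Per the submitters' processing notes, the tools were HISAT2 (version 2.2.1), featureCounts (version 2.0.3), DESeq2 (version 2.11.40.8), Trimmomatic (version 0.38.1) and FastQC (version 0.74), and the build was mm10. No order or settings are given. The sources used here give no strand or multi-mapping settings.

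Every deposited value was a whole multiple of its library's smallest value above 0 (1.04 in Ocn-EV, 0.872 in Prx1-EV and 1.13 in All-EV) at a tolerance of 1e-06, for 100% of values, and whole reads were recovered by that division. Gene IDs were matched to symbols in RefSeq's GRCm38.p6 annotation (mm10), for 25275 of 27179 genes. The comparison kept the 11067 genes whose mean over the libraries was 50 or more. Log2 ratios used a pseudocount of 1, and genes at least 1.5-fold apart were counted. Exact conditional binomial (Clopper-Pearson) 95% intervals used these whole reads. Without molecular identifiers, PCR copies count as separate molecules, and the intervals hold counting error alone. An exact binomial test on the reads with Benjamini-Hochberg adjustment, added after seeing the data, compares 2 libraries and not conditions. It called 7177 (Ocn-EV over All-EV), 7119 (Prx1-EV over All-EV) and 2872 (Ocn-EV over Prx1-EV) genes and set no direction here. Promoter letters came from RefSeq and transcript lengths from GENCODE vM21. The HSP70 coding sequences were aligned with Biopython 1.88, and other steps used Python 3.11.15, numpy 2.4.6, pandas 2.3.3, scipy 1.17.1 and matplotlib 3.10.9. The calculations were tested on simulated data.

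The members and lists were chosen with earlier results of these data known. Named genes were the 10 members, their constitutive relatives, Hsf1, Hsf2 and Cryab, and the 5 genes nearest to Hspb7 and to the HSP70 pair. Others were drawn from the 2 highest and 2 lowest other genes of each list by mean log2 ratio to All-EV. Not every gene of these ends is named. The markers named singly were chosen after their values were seen. Alternatives were other pseudocounts, filters, scalings and folds, and the HSP70 pair as 1 gene. Marker sums without their most abundant genes were added after seeing the values.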

Additional observations from a re-analysis of the deposited data

How the results depend on the processing

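Each group has 1 library, so no library could be left out. No paired analysis was possible because each group holds 1 library. Under other pseudocounts, scalings, filters, 2-fold and the HSP70 pair as 1 gene, 3 or 4 members were higher than All-EV and 0 lower in both comparisons, and no member past 1.5-fold changed direction. With libraries set to equal totals, 11 of 30 member ratios moved by more than counting error, the members' median log2 ratio was 0.53 with Ocn-EV and 0.48 with Prx1-EV, and other chaperones counted 13 higher and 8 lower (median 0.031) with Ocn-EV and 11 and 5 (median 0.027) with Prx1-EV. Between Ocn-EV and Prx1-EV, 1 member was higher with the pair as 1 gene and 0 at 2-fold. Other chaperones at a mean of at least 200 counted 4 higher with Ocn-EV and 4 with Prx1-EV over All-EV, and 0 for Ocn-EV over Prx1-EV. With no filter these were 13, 13 and 5, with 3 lower for Ocn-EV over Prx1-EV. At 2-fold, 4 were higher and 5 lower with Ocn-EV, 3 and 3 with Prx1-EV, and 0 higher for Ocn-EV over Prx1-EV. Per 100 Hspa8 reads, Hspa1a alone gave 3.07 with Ocn-EV, 1.63 with Prx1-EV and 0.521 with All-EV, and Hspa1b alone 2.22, 1.18 and 0.306. Equal totals rescale every gene. The other counts changed with the genes kept, the fold counted or the HSP70 pair taken as 1 gene. Depth limits Hspb8, Hspa1l, Dnaja4 and the All-EV value of Hspb7.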

Other observations

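Hsf4, a heat shock factor known for its role in the lens, stood at 136 with Ocn-EV and 97.7 with Prx1-EV, against 112 with All-EV. The Ocn-EV value was 1.39-fold higher than the Prx1-EV one (1.07 to 1.80), a difference of single libraries.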
